A study of Homo sapiens with 8 samples.

Results

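PIK3IP1, N4BP2L1 and 8 further genes of insulin signalling and the FOXO transcription factors (FOXO1, FOXO3, FOXO4, IRS2, INSR, CCNG2, TXNIP and KLHL24) were followed in OVSAHO and KURAMOCHI cells, established lines of serous ovarian carcinoma, cultured with simvastatin or with L-778123. Simvastatin inhibits HMG-CoA reductase and thereby the whole mevalonate pathway, whereas L-778123 inhibits the enzymes that attach the mevalonate-derived farnesyl and geranylgeranyl lipids to proteins. RNA was measured on 8 arrays, 2 for each of 4 groups, namely OVSAHO with simvastatin, OVSAHO with L-778123, KURAMOCHI with simvastatin and KURAMOCHI with L-778123. All groups had received a drug and no untreated or vehicle array was among them, so a higher level with simvastatin and a lower level with L-778123 cannot be told apart. Drug concentrations and incubation times of these cultures were not given in the sources used here. The labels do not say whether the 2 samples of a group came from separate cultures, and the p-values then measure only the spread between these samples, which may be technical.

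The genes were found by the RefSeq accession of their probes, which gave 15 probes for the 10 genes, out of 22428 genes with a named probe, and each gene was represented by the brightest of its probes on average. PIK3IP1 and N4BP2L1 were chosen by their measured values, as genes higher with simvastatin in both lines, so their differences between groups are described here and not tested. The study itself had extracted genes with close levels in the 2 lines under simvastatin, PIK3IP1 and N4BP2L1 among them, so the match of their levels under simvastatin is also no finding. The other 8 genes were chosen as members of the pathway with results of these arrays known. A level is the log2 intensity of a probe minus that of the 75th percentile probe on the same array, and levels are compared between groups for 1 gene, never between genes. All 10 genes were well above background on all 8 arrays.

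The FOXO proteins are transcription factors that stand at the end of the insulin and growth factor pathway. A receptor such as INSR or IGF1R acts through IRS adaptors on PI3K, whose lipid product activates AKT, and AKT phosphorylates FOXO proteins, which then leave the nucleus. When AKT activity is low, FOXO proteins in the nucleus switch on genes of cell cycle arrest, apoptosis, autophagy and fuel use, and also INSR and IRS2, which closes a feedback loop. PIK3IP1 is a transmembrane protein that binds the catalytic subunit of PI3K and lowers its activity. None of the values below measures the activity or location of a protein.

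The arrays were even in quality. Between 51.8 and 57.5% of 58162 probes were well above background, replicate arrays correlated at r = 0.995 to 0.996 over kept probes, and their median difference was 0.10 to 0.11 on the log2 scale. All arrays lay on 1 slide with each group in its own positions, so the position on the slide and the group cannot be told apart. All 11 markers of serous ovarian carcinoma, including PAX8, WT1 and MUC16, were well above background on every array. Of 9 markers of other cell types with a probe, 4 were, ACTA2 among them, while PECAM1, DCN and LUM were not on any array. Their summed log2 level was 1.00 to 1.01 and 0.79 to 0.80 in OVSAHO with simvastatin and L-778123, and 1.97 to 2.00 and 6.65 to 6.67 in KURAMOCHI. The last range came from ACTA2, smooth muscle actin, which was 5.09 lower (log2) with simvastatin than with L-778123 in KURAMOCHI (limma adjusted p = 4.14e-05). Its part in the differences below was not tested, and fewer cells of a type and less RNA per cell cannot be told apart in such samples.

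Promoter sequences of the 10 genes were taken from RefSeq (assembly GRCh38.p14), as 15 windows that run from 250 bases before to 50 bases after a transcription start. Each was searched on both strands for GTAAACA, the core of the FOXO binding motif, for CAAAACA, the core of the insulin response element, and for the E-box CACGTG. No window held more than 1 match, so that no matches overlapped. GTAAACA stood in windows of 3 of the 10 genes, PIK3IP1, FOXO4 and TXNIP, and in 3.42% of all 35116 windows, or 4.19% of 27305 genes. CAAAACA stood in those of IRS2 and KLHL24, and in 4.92% of all windows (6.05% of genes). CACGTG stood in that of CCNG2 and in 7.26% of all windows (8.77% of genes). The windows of N4BP2L1, FOXO1, FOXO3 and INSR held none of these strings.

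The windows with a FOXO or insulin response core are shown because they belong to genes whose levels are described below, with the match in capitals and the rest in lower case, each read 5′ to 3′ on the strand of its gene. For PIK3IP1 the FOXO core lay on the opposite strand, so that the printed strand of the gene reads TGTTTAC. This core lay at chr22:31292439-31292738 (minus strand), beginning at base 17 of the transcript. A second PIK3IP1 window did not hold it. For FOXO4, at chrX:71095601-71095900 (plus strand), it began at base 24 of the transcript, and for TXNIP, at chr1:145996530-145996829 (minus strand), it began 124 bases before the start. The insulin response core was also on the opposite strand, so that the printed strand of the gene reads TGTTTTG. It began 40 bases before the start of IRS2 at chr13:109786534-109786833 (minus strand) and 32 bases before that of KLHL24 at chr3:183635373-183635672 (plus strand). A match of letters is a description and not evidence of binding.
PIK3IP1: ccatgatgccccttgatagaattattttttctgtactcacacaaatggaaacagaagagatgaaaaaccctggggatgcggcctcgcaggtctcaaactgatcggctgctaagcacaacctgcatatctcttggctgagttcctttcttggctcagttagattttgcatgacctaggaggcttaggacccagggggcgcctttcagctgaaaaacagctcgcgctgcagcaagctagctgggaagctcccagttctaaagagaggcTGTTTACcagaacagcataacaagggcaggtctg
FOXO4: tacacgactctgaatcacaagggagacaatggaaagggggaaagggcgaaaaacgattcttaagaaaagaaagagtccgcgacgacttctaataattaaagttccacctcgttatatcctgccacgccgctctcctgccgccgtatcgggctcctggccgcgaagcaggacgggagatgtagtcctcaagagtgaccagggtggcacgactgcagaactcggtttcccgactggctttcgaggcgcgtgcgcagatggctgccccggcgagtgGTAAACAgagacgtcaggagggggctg
TXNIP: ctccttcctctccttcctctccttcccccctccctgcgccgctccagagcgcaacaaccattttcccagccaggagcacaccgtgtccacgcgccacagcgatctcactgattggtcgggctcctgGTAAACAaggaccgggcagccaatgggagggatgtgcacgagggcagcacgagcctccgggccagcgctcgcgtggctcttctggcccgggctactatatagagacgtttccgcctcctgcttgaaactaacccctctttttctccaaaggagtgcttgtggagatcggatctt
IRS2: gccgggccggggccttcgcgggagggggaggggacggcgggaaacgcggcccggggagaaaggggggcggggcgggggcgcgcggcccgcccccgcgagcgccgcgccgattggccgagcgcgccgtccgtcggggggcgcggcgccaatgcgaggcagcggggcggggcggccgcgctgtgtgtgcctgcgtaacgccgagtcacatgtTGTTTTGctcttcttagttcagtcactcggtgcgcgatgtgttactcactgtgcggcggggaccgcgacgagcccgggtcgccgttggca
KLHL24: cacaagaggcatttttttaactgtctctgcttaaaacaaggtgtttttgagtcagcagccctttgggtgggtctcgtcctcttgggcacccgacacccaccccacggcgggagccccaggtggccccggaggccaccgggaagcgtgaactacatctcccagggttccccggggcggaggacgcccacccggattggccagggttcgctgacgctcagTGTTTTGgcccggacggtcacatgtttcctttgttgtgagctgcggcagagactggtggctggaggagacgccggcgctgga

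PIK3IP1 was higher with simvastatin than with L-778123 in both lines, by 10.9-fold in OVSAHO and by 3.15-fold in KURAMOCHI. Its 2 arrays read -0.17 and -0.30 in OVSAHO with simvastatin and -3.64 and -3.74 with L-778123. In KURAMOCHI they read -0.32 and -0.15 with simvastatin and -1.86 and -1.92 with L-778123. The levels with simvastatin overlapped between the lines, and the lines stood apart with L-778123, where OVSAHO had the lowest level of the 4 groups. The log2 differences were 3.45 and 1.66, the 47th and 120th highest of 16942 genes tested, and the values differed between lines by 1.80. PIK3IP1 has 1 probe on the array. After a background correction that adds an offset to all intensities, the log2 differences were 2.18 and 1.26.

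N4BP2L1, a gene named for its similarity to N4BP2 and with a little-studied product, also had its lowest level in OVSAHO with L-778123. Its levels were -0.37 and -0.44 in OVSAHO with simvastatin against -2.33 and -2.24 with L-778123. In KURAMOCHI they were -0.43 and -0.14 with simvastatin against -1.53 and -1.56 with L-778123. The arrays with simvastatin overlapped between the lines, a closeness for which the study had extracted the gene. All of them lay above those with L-778123, for which the gene had been chosen here. The differences came to 3.67-fold in OVSAHO and 2.40-fold in KURAMOCHI, or 1.88 and 1.26 on the log2 scale, the 268th and 258th highest of all genes tested. The value in KURAMOCHI was 1.40 without simvastatin replicate 1 and 1.12 without simvastatin replicate 2, the samples that were farthest apart.

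**Figure D1:**
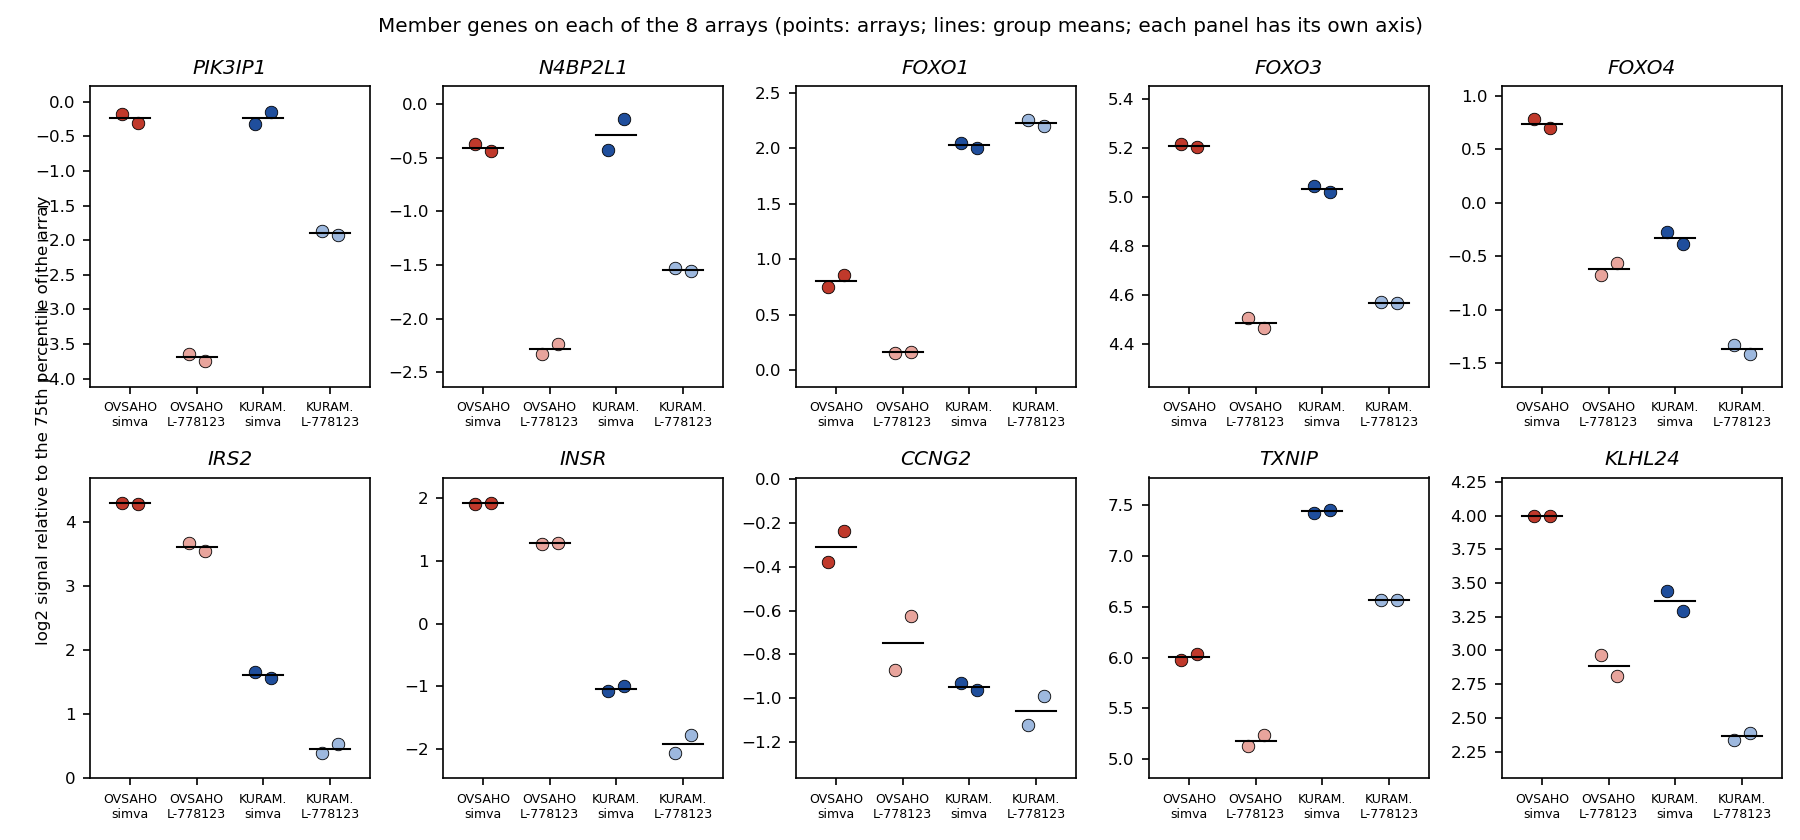
Log2 signal relative to the 75th percentile of the array (vertical axis, scaled for each gene) for the 10 genes in the 4 groups; each point is 1 array and each line the mean of 2. PIK3IP1 and N4BP2L1 had overlapping levels with simvastatin in the 2 lines, IRS2 and INSR were higher in OVSAHO in both drugs, and FOXO1 and TXNIP were higher in KURAMOCHI.

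Of the 8 other genes, FOXO4 and KLHL24 were called higher with simvastatin in OVSAHO, that is with a limma adjusted p under 0.05 and a fold of at least 2, and none was called lower. Among all 16942 genes tested, 5.69% were called higher and 5.87% lower in this comparison. At an adjusted p under 0.05 without regard to fold, 8 of 8 were higher, against 26.5% of all genes, and none was lower, against 27.5%. In KURAMOCHI FOXO4, IRS2 and KLHL24 were called higher, 3 of 8 against 2.43% of all genes, and none was called lower, against 2.93%. There 6 of 8 were higher by the adjusted p alone, against 17.1%, and none was lower, against 18.4%. The median log2 difference of the 8 genes was 0.70 in OVSAHO and 0.88 in KURAMOCHI, against 0.01 in both lines for all genes. As the genes were chosen with these results known, the shares describe them and are no independent support. In KURAMOCHI the log2 differences of FOXO4 and KLHL24 were close to the 2-fold threshold, and without simvastatin replicate 1 they were 0.99 and 0.93, which left 1 of 8 called.

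**Figure D2:**
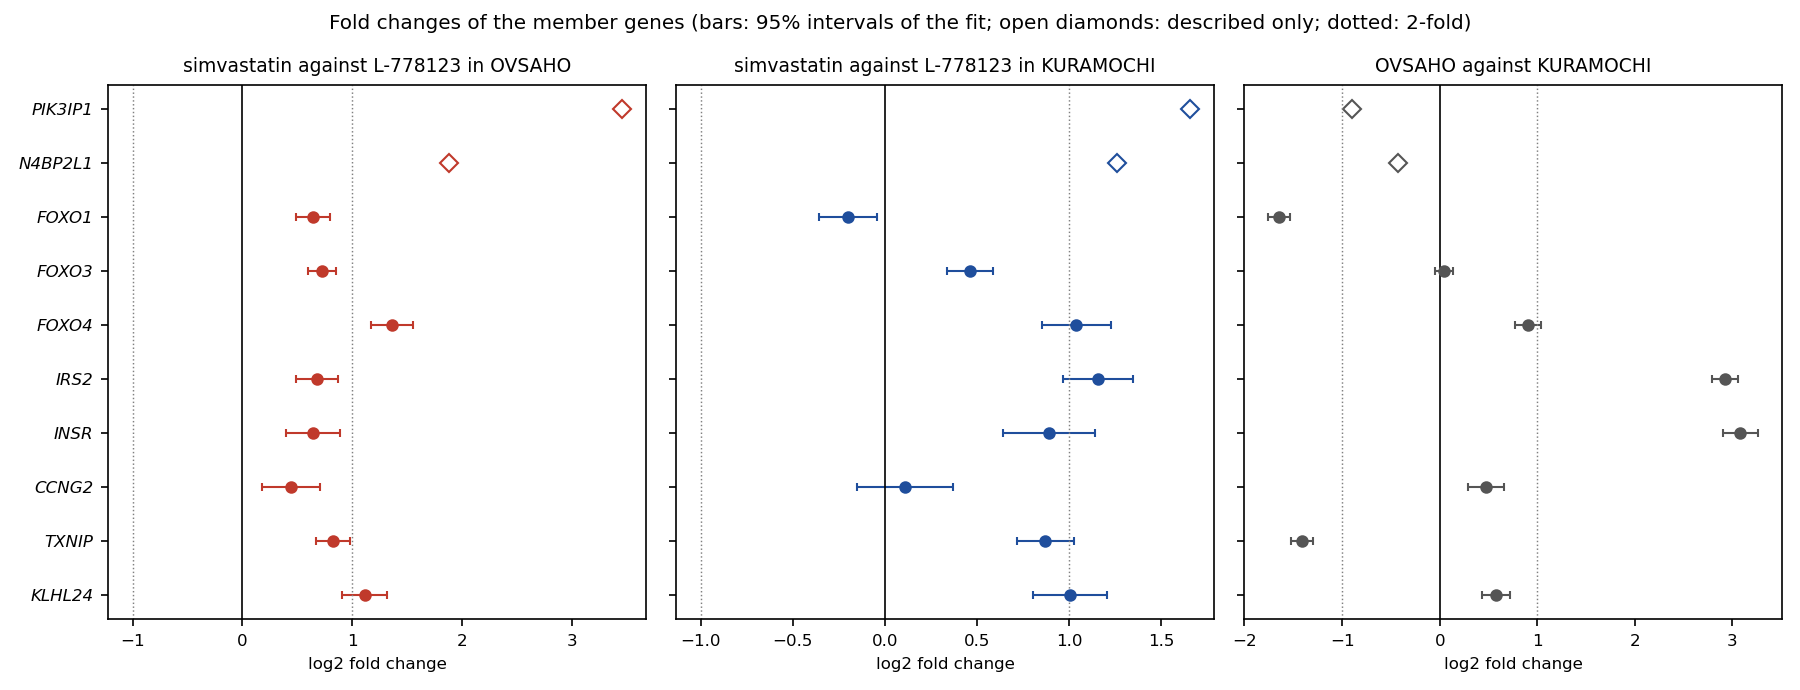
Log2 fold changes (horizontal axis, scaled for each panel) of the 10 genes with simvastatin against L-778123 in each line and in OVSAHO against KURAMOCHI over both drugs. Bars are 95% intervals of the fit, open diamonds are the genes that were described and not tested, and dotted lines mark 2-fold. All 8 tested genes lay above 0 in OVSAHO, while in KURAMOCHI FOXO1 lay below 0 and the interval of CCNG2 included 0.

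The FOXO factors themselves differed in their pattern. FOXO4 had levels of 0.78 and 0.70 with simvastatin and -0.68 and -0.57 with L-778123 in OVSAHO, and of -0.27 and -0.38 against -1.32 and -1.41 in KURAMOCHI. The drug groups did not overlap in either line. It was higher with simvastatin by 2.57-fold in OVSAHO (log2 difference 1.36, SE 0.076, limma adjusted p = 0.000104) and by 2.06-fold in KURAMOCHI (1.04, SE 0.076, adjusted p = 0.000633). The difference between these values was 0.32, with a 95% interval of 0.05 to 0.59 and an adjusted p of 0.088, which passed with the offset background correction (0.022). A second FOXO4 probe gave a log2 difference of 1.39 in OVSAHO that did not pass the test (adjusted p = 0.087). In KURAMOCHI it was not well above background with L-778123, so that no difference is given.

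FOXO1 was higher with simvastatin in OVSAHO and not in KURAMOCHI. Its levels were 0.75 and 0.86 with simvastatin and 0.16 and 0.17 with L-778123 in OVSAHO, and 2.05 and 2.00 against 2.26 and 2.20 in KURAMOCHI. In KURAMOCHI the 2 arrays with L-778123 thus lay above those with simvastatin. The log2 difference was 0.64 (SE 0.063, limma adjusted p = 0.000699) in OVSAHO and -0.20 (95% interval -0.36 to -0.04, adjusted p = 0.061) in KURAMOCHI. The drug contrasts differed between the lines by 0.84 on the log2 scale (SE 0.089, adjusted p = 0.0029). Such a difference in either direction passed the adjusted p in 2 of the 8 genes, FOXO1 and IRS2, and in 27.4% of all genes, and it was called with a fold of at least 2 in none of the 8 and in 7.56% of all genes.

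FOXO3, for which the fit gave the smallest error of the 8 genes, had levels of 5.21 and 5.20 with simvastatin and 4.51 and 4.46 with L-778123 in OVSAHO. In KURAMOCHI its levels were 5.05 and 5.02 with simvastatin and 4.57 and 4.57 with L-778123. It was higher with simvastatin by 1.65-fold in OVSAHO (limma adjusted p = 0.000227) and by 1.38-fold in KURAMOCHI (adjusted p = 0.0022), below the 2-fold threshold. Its 2 other probes gave log2 differences of 0.68 and 0.67 in OVSAHO and 0.35 and 0.49 in KURAMOCHI, which lay beside 0.72 and 0.46 of the probe used. The drug contrast differed between the lines by 0.26, with a 95% interval of 0.08 to 0.44 and an adjusted p of 0.053 (0.0096 to 0.26 over the alternatives, 3 of which passed).

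INSR, the insulin receptor, and IRS2, its adaptor to PI3K, were higher with simvastatin in both lines, and their largest differences were between the lines. IRS2 had levels of 4.31 and 4.29 with simvastatin and 3.67 and 3.56 with L-778123 in OVSAHO, against 1.66 and 1.57 and then 0.39 and 0.52 in KURAMOCHI. All arrays of OVSAHO lay above all arrays of KURAMOCHI. The log2 difference between the drugs was 0.68 (SE 0.077, limma adjusted p = 0.0011) in OVSAHO and 1.16 (SE 0.077, adjusted p = 0.000479) in KURAMOCHI. The value in OVSAHO was 0.48 below that in KURAMOCHI (adjusted p = 0.030), below 2-fold, and no longer passed when any of 6 arrays was left out, namely either array with simvastatin in either line or replicate 1 with L-778123 in either line (adjusted p up to 0.10 over all alternatives).

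INSR levels were 1.92 and 1.93 with simvastatin and 1.27 and 1.29 with L-778123 in OVSAHO, and -1.08 and -0.99 against -2.07 and -1.78 in KURAMOCHI. The drug groups were separate in both lines. INSR was 1.56-fold higher with simvastatin in OVSAHO (limma adjusted p = 0.0038) and 1.85-fold higher in KURAMOCHI (adjusted p = 0.0024). Its drug contrast differed between the lines by -0.25, with a 95% interval of -0.60 to 0.11 (adjusted p = 0.27).

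KLHL24, an adaptor of the CUL3 ubiquitin ligase, was called higher with simvastatin in both lines. Its levels were 4.0 and 4.0 with simvastatin and 2.96 and 2.81 with L-778123 in OVSAHO, and 3.44 and 3.30 against 2.34 and 2.39 in KURAMOCHI. Within each line both arrays with simvastatin were the higher ones. The fold was 2.16 in OVSAHO (limma adjusted p = 0.000249) and 2.01 in KURAMOCHI (adjusted p = 0.000816), and the drug contrast differed between the lines by 0.11 on the log2 scale, with a 95% interval of -0.18 to 0.39 (adjusted p = 0.55).

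TXNIP, an arrestin-like protein that binds thioredoxin and restrains glucose uptake, had levels of 5.98 and 6.03 with simvastatin and 5.13 and 5.24 with L-778123 in OVSAHO. In KURAMOCHI its levels were 7.42 and 7.46 with simvastatin and 6.57 and 6.57 with L-778123. Every array of KURAMOCHI exceeded every array of OVSAHO, and within a line simvastatin exceeded L-778123. The drug difference was 1.77-fold in OVSAHO (limma adjusted p = 0.000286) and 1.83-fold in KURAMOCHI (adjusted p = 0.000585). The log2 difference of these values was -0.05, with a 95% interval of -0.27 to 0.17 (adjusted p = 0.72).

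CCNG2, an atypical cyclin linked to cell cycle arrest, had the smallest drug difference of the 8 genes in OVSAHO. Its levels there were -0.38 and -0.24 with simvastatin and -0.87 and -0.63 with L-778123, and in KURAMOCHI -0.93 and -0.96 against -1.12 and -0.99. The log2 difference was 0.44 (SE 0.11, limma adjusted p = 0.017) in OVSAHO and 0.11 in KURAMOCHI, with a 95% interval of -0.15 to 0.37 (adjusted p = 0.47). The value in OVSAHO, below 2-fold, no longer passed the adjusted p without simvastatin replicate 2 or without L-778123 replicate 1, where it was 0.37 and 0.32. Its 3 probes disagreed: a second probe gave 0.28 (adjusted p = 0.025) in OVSAHO and 0.45 (adjusted p = 0.0078) in KURAMOCHI, and the other gave 0.22 and 0.05, neither passing the test (adjusted p = 0.068 and 0.67).

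Over both drugs, 4 of the 8 genes were called different between the lines, where 34.7% of all genes were, and 7 of 8 passed the adjusted p alone, where 82.8% did. INSR was 8.46-fold (log2 3.08, limma adjusted p = 4.73e-07) and IRS2 7.58-fold (2.92, adjusted p = 2.51e-07) higher in OVSAHO. FOXO1 was 3.13-fold (-1.64, adjusted p = 7.98e-07) and TXNIP 2.66-fold (-1.41, adjusted p = 1.31e-06) lower in OVSAHO than in KURAMOCHI. FOXO4, KLHL24 and CCNG2 were higher in OVSAHO by 0.91, 0.58 and 0.47 on the log2 scale, below 2-fold, with adjusted p-values of 1.70e-05, 0.000178 and 0.0015. FOXO3 differed by 0.05, with a 95% interval of -0.04 to 0.14 (adjusted p = 0.29). PIK3IP1 and N4BP2L1, which were not tested, were 0.90 and 0.43 lower in OVSAHO when averaged over the drugs, with the gap at L-778123.

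In the order of the 4 groups, neighbouring groups overlapped in their arrays for PIK3IP1 and N4BP2L1 at the top. This was between the lines with simvastatin, where the study had extracted both genes for close levels. The other 8 genes had no such overlap. How many of all genes had none was not counted, so the order of the groups is given only as a description. OVSAHO with simvastatin had the highest mean for FOXO3, FOXO4, IRS2, INSR, CCNG2 and KLHL24. FOXO1 was highest in KURAMOCHI with L-778123 and TXNIP in KURAMOCHI with simvastatin. The closest neighbours without overlap were FOXO3 in KURAMOCHI and OVSAHO with L-778123, 0.08 apart, and CCNG2 in KURAMOCHI with simvastatin and L-778123, 0.11 apart, of which the latter did not pass the test.

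Among the 5 genes whose pattern over the 8 arrays was most like that of PIK3IP1, by Pearson's r over 16942 genes, were TMEM53 (r = 0.997), MOB3C (0.995), SLC26A6 (0.994) and RARA-AS1 (0.993). RARA-AS1 had log2 differences of 2.53 in OVSAHO and 1.1 in KURAMOCHI, and those of the other named genes ranged from 0.40 for SLC26A6 to 1.17 for MOB3C in OVSAHO. The most alike to N4BP2L1 were NEK11 (0.993), FOXO6 (0.993) and KLF9 (0.992), with log2 differences of 0.74, 1.76 and 1.38 in OVSAHO and 0.59, 1.02 and 0.88 in KURAMOCHI. PIK3IP1 and N4BP2L1 correlated at 0.986, but both had been chosen as higher with simvastatin in both lines, so that value is no finding. These arrays fall into 4 groups that share drugs and lines, so that r describes the order and spacing of the groups.

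FOXO target genes outside the 10 were examined from a list of 37 genes, of which 32 were tested. In OVSAHO 9 of the 32 were called higher with simvastatin, beside 5.69% of all genes, 2 were called lower, beside 5.87%, and 21 were not called. The median log2 difference was 0.40 against 0.01 for all genes. At an adjusted p under 0.05 alone, 19 were higher and 5 lower, beside 26.5% and 27.5% of all genes. In KURAMOCHI 7 of the 32 were called higher, beside 2.43% of all genes, none was called lower, beside 2.93%, and 25 were not called, with a median of 0.37 against 0.01. There 18 were higher and 5 lower by the adjusted p, beside 17.1% and 18.4% of all genes. TRIM63 passed the filter on dim probes through OVSAHO with simvastatin alone. Without it 8 and 6 were called higher, and 18 and 17 were higher by the adjusted p alone. G6PC1, IGFBP1, KLF15, FASLG and CCND2 did not pass the filter on dim probes. The list was written with earlier results of these arrays known.

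Among the targets well above background with both drugs, the largest called differences were those of TNFSF10, BBC3 and PDK4 in OVSAHO and of PDK4, TNFSF10 and FBXO32 in KURAMOCHI. TRIM63 and CDKN1A were not well above background with L-778123 in OVSAHO and have no rank there. TNFSF10, the death ligand TRAIL, had levels of 4.53 and 4.49 with simvastatin and 0.38 and 0.47 with L-778123 in OVSAHO, and of 1.81 and 1.79 against -0.57 and -0.66 in KURAMOCHI. It was 16.9-fold higher with simvastatin in OVSAHO (limma adjusted p = 1.28e-05) and 5.32-fold higher in KURAMOCHI (adjusted p = 8.26e-05). BBC3, the apoptosis inducer PUMA, was 13.2-fold higher in OVSAHO (adjusted p = 1.28e-05) and 2.25-fold higher in KURAMOCHI (adjusted p = 0.000368). PDK4, which inhibits pyruvate dehydrogenase and so spares glucose, had levels of 3.72 and 3.66 against 0.46 and 0.49 in OVSAHO and of 2.39 and 2.42 against -0.18 and -0.13 in KURAMOCHI. The drug groups stood apart in both lines, at 9.27-fold (adjusted p = 1.28e-05) and 5.89-fold (adjusted p = 5.71e-05).

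Of the ubiquitin ligases of muscle wasting, FBXO32 was 4.85-fold higher with simvastatin in OVSAHO (limma adjusted p = 3.36e-05) and 3.37-fold higher in KURAMOCHI (adjusted p = 0.000211). TRIM63 was not well above background in OVSAHO with L-778123 and was at least 3.70-fold higher with simvastatin there, the mean with simvastatin being set against the higher of its own signal and the dimmest reliably detected probe for each array with L-778123. No p is given, as the gene was tested only because it was high in that group. In KURAMOCHI TRIM63 was among the 7 calls but was not well above background in either drug, so that no fold is given.

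The remaining calls in the list were looked up after their values were seen. CDKN1A, an inhibitor of cyclin-dependent kinases, was not well above background in OVSAHO with L-778123 and at least 9.29-fold higher with simvastatin (limma adjusted p = 3.21e-05), and it was 2.39-fold higher in KURAMOCHI (adjusted p = 0.0017). In OVSAHO PCK1, an enzyme of gluconeogenesis, was 2.97-fold, GABARAPL1, an autophagy protein, 2.62-fold and MXI1, an antagonist of MYC, 2.47-fold higher. BCL2L11, the apoptosis inducer BIM, was 2.16-fold higher in KURAMOCHI and 1.74-fold higher in OVSAHO, below the fold threshold there. CCND1, cyclin D1, was lower with simvastatin in OVSAHO by 4.10-fold (adjusted p = 3.36e-05) and GADD45A, a growth arrest gene, by 2.39-fold (adjusted p = 9.55e-05). Cyclin D1 is known as a gene that FOXO factors repress, whereas GADD45A is known as one that they activate.

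**Figure D3:**
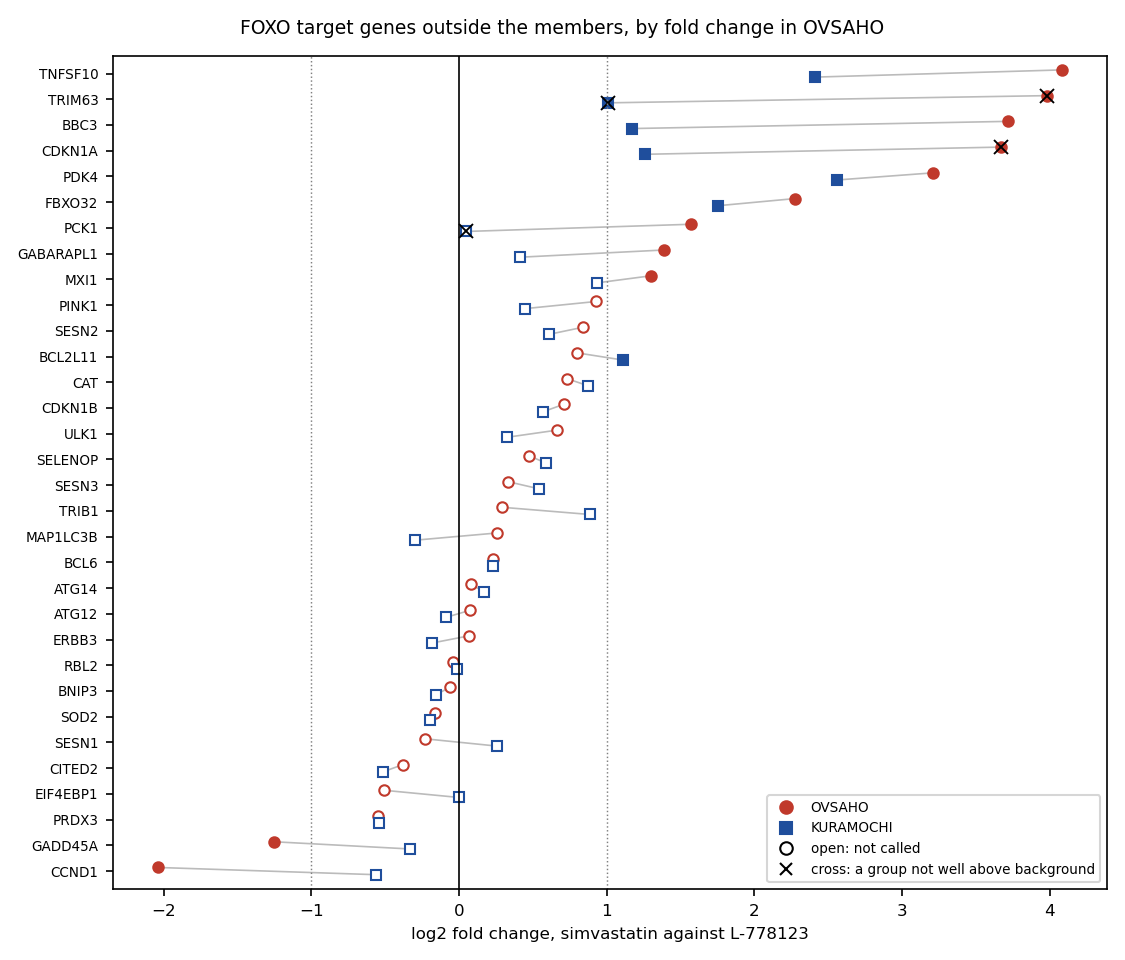
Log2 fold change with simvastatin against L-778123 (horizontal axis) of the 32 tested FOXO target genes outside the 10, in OVSAHO (circles) and KURAMOCHI (squares); filled symbols were called, and crosses mark a comparison with a group not well above background. TNFSF10, BBC3, PDK4 and FBXO32 were called higher in both lines, and CCND1 and GADD45A were called lower in OVSAHO.

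Upstream of FOXO, 31 receptors, adaptors, PI3K subunits and AKT-like kinases were tested. In OVSAHO 1 of 31 was called higher and 2 of 31 lower, near the 5.69% and 5.87% of all genes, 28 were not called, and the median log2 difference was -0.09. In KURAMOCHI none was called, beside 2.43% and 2.93% of all genes, and the median was -0.06. At an adjusted p under 0.05 alone, 7 were higher and 13 lower in OVSAHO, beside 26.5% and 27.5% of all genes. By the same measure 6 were higher and 7 lower in KURAMOCHI, beside 17.1% and 18.4%. IGF1R, the receptor for insulin-like growth factor, had levels of 0.51 and 0.49 with simvastatin and -1.07 and -1.02 with L-778123 in OVSAHO, a difference of 2.92-fold (limma adjusted p = 3.36e-05). In KURAMOCHI it was 1.46-fold higher (adjusted p = 0.0017). PIK3R3, a regulatory subunit of PI3K, was lower with simvastatin in OVSAHO by 2.37-fold (adjusted p = 0.000644), and SGK1, an AKT-related kinase that also phosphorylates FOXO3, by 2.33-fold (adjusted p = 0.000105). In KURAMOCHI their log2 differences were -0.40 (adjusted p = 0.052) and -0.72 (adjusted p = 0.0014).

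Among 17 tested brakes on PI3K, AKT and mTORC1, the list that PIK3IP1 would belong to by function, 3 were called higher with simvastatin in OVSAHO, beside 5.69% of all genes, and 1 in KURAMOCHI, beside 2.43%. None was called lower, beside 5.87% and 2.93%, and 14 and 16 were not called. By the adjusted p alone, 7 were higher and 4 lower in OVSAHO, beside 26.5% and 27.5% of all genes. In KURAMOCHI 4 were higher and 6 lower, beside 17.1% and 18.4%. The medians were -0.06 and 0.09. DEPTOR, an inhibitor of mTOR, had levels of 3.32 and 3.40 against 1.55 and 1.29 in OVSAHO and of 0.42 and 0.45 against -0.57 and -0.66 in KURAMOCHI. It was 3.85-fold higher in OVSAHO (limma adjusted p = 8.15e-05) and 2.07-fold higher in KURAMOCHI (adjusted p = 0.0013). TRIB3, a pseudokinase that binds AKT, was 3.14-fold higher (adjusted p = 7.50e-05) and DDIT4, a stress-induced inhibitor of mTORC1, 2.32-fold higher (adjusted p = 0.000107) in OVSAHO, and both were 1.85-fold higher in KURAMOCHI (adjusted p = 0.0012 and 0.000737).

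Of 19 FOXO cofactors and modifiers, 1 was called higher and 2 lower in each line, and 16 were not called. In OVSAHO 5.69% of all genes were called higher and 5.87% lower, so that 1 of 19 was near the background. In KURAMOCHI 2.43% and 2.93% were. By the adjusted p alone, 4 of 19 were higher and 7 lower in each line. Of all genes, 26.5% were then higher and 27.5% lower in OVSAHO, and 17.1% and 18.4% in KURAMOCHI. FOXO6, the fourth FOXO gene, was higher with simvastatin by 3.38-fold in OVSAHO (limma adjusted p = 2.04e-05) and by 2.03-fold in KURAMOCHI (adjusted p = 0.000242). SKP2, a ubiquitin ligase subunit that marks FOXO1 for degradation, was lower by 2.18-fold in OVSAHO (adjusted p = 7.70e-05) and by 2.19-fold in KURAMOCHI (adjusted p = 0.000242). PPARGC1A, a coactivator that works with FOXO1 in gluconeogenesis, had levels of -2.01 and -2.03 with simvastatin against 0.98 and 0.85 with L-778123 in OVSAHO. In KURAMOCHI they were -0.68 and -0.81 against 0.26 and 0.26. It was lower with simvastatin by 7.64-fold (adjusted p = 1.92e-05) and by 2.00-fold (adjusted p = 0.000632). The value in KURAMOCHI thus lay at the 2-fold threshold.

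Relatives and partners of the 10 genes, 13 tested, had 1 call higher and none lower in each line. Of all genes, 5.69% were called higher and 5.87% lower in OVSAHO, and 2.43% and 2.93% in KURAMOCHI. By the adjusted p alone, 6 were higher and 2 lower in OVSAHO, beside 26.5% and 27.5% of all genes. In KURAMOCHI 6 were higher and 1 lower, beside 17.1% and 18.4%. ARRDC2, an arrestin-like relative of TXNIP, was 3.32-fold higher with simvastatin in OVSAHO (limma adjusted p = 6.10e-05) and 1.42-fold higher in KURAMOCHI (adjusted p = 0.0066). MLXIPL, a glucose-responsive transcription factor that activates TXNIP, was not well above background in KURAMOCHI with L-778123 and was at least 3.62-fold higher with simvastatin there (adjusted p = 0.0012). In OVSAHO it was 1.64-fold higher (adjusted p = 0.019).

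**Figure D4:**
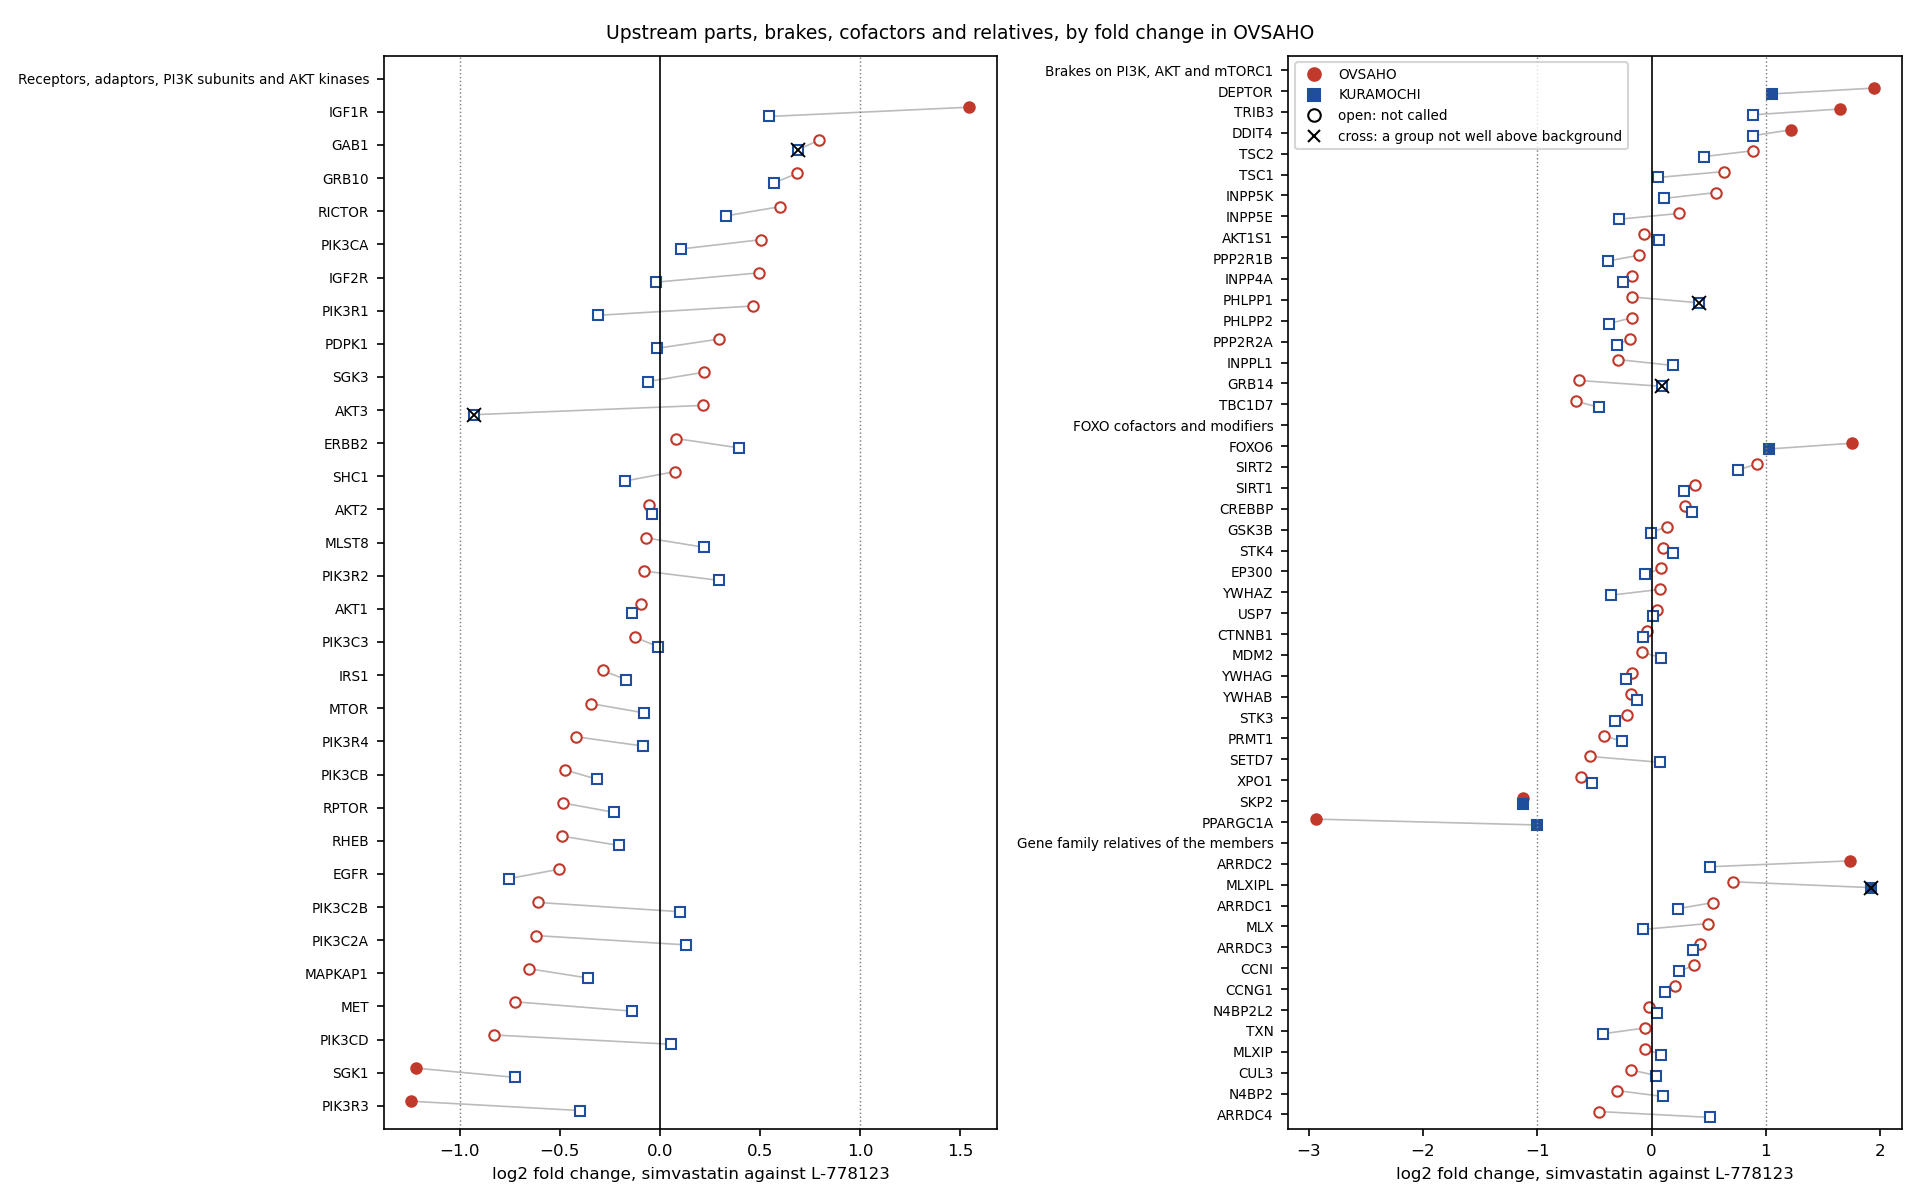
Log2 fold change with simvastatin against L-778123 (horizontal axes, each panel with its own scale) in OVSAHO (circles) and KURAMOCHI (squares) for receptors, adaptors, PI3K subunits and kinases (left) and for brakes, FOXO cofactors and relatives of the 10 genes (right), with some genes not shown; filled symbols were called and crosses mark a comparison with a group not well above background. Most upstream parts lay within 2-fold in both lines, DEPTOR and FOXO6 were called higher and SKP2 and PPARGC1A lower in both. PPARGC1A in KURAMOCHI lay at the 2-fold threshold.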

How the data were processed

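RNA of the 8 samples was measured on Agilent SurePrint G3 arrays with 1 dye. The authors extracted the images with Feature Extraction 11.5.1.1 and deposited the background-subtracted intensity of each spot, which was not normalized between arrays, and a table of processed intensity of the same arrays, whose medians of 26.4 to 26.5 differed little between arrays and which correlated at 0.999 or more with the scanner values. Outlier and control spots were left out. Each array's 75th percentile was subtracted from its log2 intensities. The filter required that some group had both its arrays well above background, which held for 33753 of 58162 probes. The number of arrays limits the precision. RefSeq accessions named 24768 of 49766 identifiers, and 16942 genes had a kept probe.

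All comparisons used limma 3.58.1 in R 4.3.3 with a mean for each of the 4 groups and Benjamini-Hochberg adjustment over all kept probes. The same steps were run on simulated data with independent noise, which cannot show whether the p-values hold for these arrays. A call needed a fold of 2 or more and an adjusted p under 0.05. The genes and lists were chosen with earlier results of these data known. The named genes are the 10, the 3 largest calls of each list in each line, any gene called in opposite directions, and the 5 and 3 genes most like PIK3IP1 and N4BP2L1. A planned search of FOXO proteins was not done, and some genes are not reported here. Alternatives covered the normalization, filter, background correction, probes, model and leaving out each array. Python 3.11.15 with matplotlib 3.10.9 was used for tables and figures.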

Additional observations from a re-analysis of the deposited data

Results flagged for a closer look

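The following drug contrasts, simvastatin against L-778123 on the log2 scale, differed between OVSAHO and KURAMOCHI by the test of the difference itself (limma, Benjamini-Hochberg), and each is given as the value in OVSAHO minus that in KURAMOCHI. Among the 8 tested genes of the main set, FOXO1 differed by 0.84 (adjusted p = 0.0029) and IRS2 by -0.48 (adjusted p = 0.030). Among the genes named from the pathway lists with all groups measured, the difference was called for IGF1R at 1.00 (adjusted p = 0.0012), PPARGC1A at -1.93 (adjusted p = 0.000458), TNFSF10 at 1.67 (adjusted p = 0.000436), BBC3 at 2.55 (adjusted p = 0.000248) and ARRDC2 at 1.23 (adjusted p = 0.0018). For these 5 genes the drugs differed in the same direction in both lines, with no overlap of their arrays. The larger difference was in OVSAHO. They had been named for the largest called drug differences in a line, IGF1R, BBC3 and ARRDC2 through OVSAHO alone. A larger difference in OVSAHO was thus favoured by the choice and is no finding. The value of IGF1R lay at the 2-fold threshold. TRIM63 and MLXIPL were left out of this comparison because they were not well above background in at least 1 group. IRS2 no longer passed when any of 6 arrays was left out. Of all 16942 genes, 7.56% had such a called difference in either direction. Over the pathway lists, 7 of 112 tested genes had a called difference above 0 and 3 below, with TRIM63 and MLXIPL among the tested. With 2 arrays a group, no test for a single outlying array was made.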

How the results depend on the processing

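The log2 differences of PIK3IP1 and N4BP2L1 kept their sign under all 18 alternatives and that of the 8 tested genes between drugs did so too. Normexp background correction with an offset of 50 lowered PIK3IP1 to 2.18 in OVSAHO and 1.26 in KURAMOCHI and N4BP2L1 to 1.40 and 0.98. Leaving out 1 array gave 3.39 to 3.52 and 1.57 to 1.74 for PIK3IP1 and 1.83 to 1.92 and 1.12 to 1.40 for N4BP2L1.

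Of the 8 tested genes, 2 were called higher in OVSAHO and 3 in KURAMOCHI, beside 5.69% and 2.43% of all genes. Without the fold threshold these counts were 8 and 6, beside 26.5% and 17.1%. They were 7 and 5 with a threshold of 1.5-fold, and 1 in KURAMOCHI with normexp. The share of all genes at 1.5-fold or with normexp was not counted, so these counts have no background beside them. Leaving out 1 array gave 1 to 3 in KURAMOCHI, the lowest without simvastatin replicate 1. The difference of the drug contrasts between the lines passed for 2 genes, for 1 with no filter on dim probes and for 1 with the replicate block, and for 1 or 2 when an array was left out. It passed for 3 with normexp, where FOXO4 was added (adjusted p = 0.022), and for 3 where FOXO3 was added, with the percentile over bright probes (0.046), with probes well above background on all arrays (0.037) and with the methods' two-way analysis of variance (0.0096). The count between the lines rose from 4 to 7 without the fold threshold, beside 34.7% and 82.8% of all genes. FOXO3 between the lines changed sign to -0.0259 with quantile normalization, -0.0278 with the authors' table and -0.0152 with the median over probes, and FOXO4 in the difference between the lines changed to -0.0317 with that median, which includes a probe not well above background in KURAMOCHI with L-778123. Leaving out 1 array gave -0.106 to 0.0043 for TXNIP in that difference, with the sign changed without OVSAHO L-778123 replicate 2. The cause was not tested. By the adjusted p alone, CCNG2 in OVSAHO no longer passed with the line fitted alone, and FOXO1 in KURAMOCHI passed with normexp, with probes well above background on all arrays and with the methods' two-way analysis of variance, at values of -0.22 to -0.20.

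Over the pathway lists, 15 of 112 tested genes were called higher in OVSAHO and 10 in KURAMOCHI, beside 5.69% and 2.43% of all genes. Both counts included TRIM63, which passed the filter on dim probes through 1 group alone. Called lower were 6 and 2, beside 5.87% and 2.93%. Without the fold threshold 43 and 38 were higher, beside 26.5% and 17.1% of all genes. Lower were then 31 and 26, beside 27.5% and 18.4%. With 1.5-fold the counts were 27 and 18 higher and 14 and 4 lower. The share of all genes was not counted at 1.5-fold or for the other alternatives in this paragraph. In KURAMOCHI normexp gave 5 higher and 1 lower, and quantile normalization, the percentile over bright probes and the authors' table gave 1 lower. Leaving out 1 array gave 1 to 3 lower there. For the 32 tested FOXO targets, 9 and 7 called higher became 19 and 18 without the fold threshold, beside 26.5% and 17.1% of all genes. With 1.5-fold they were 15 and 12. All these counts included TRIM63. Without TRIM63, 8 and 6 were called higher, and 18 and 17 were higher by the adjusted p alone.

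Samples with the same replicate number deviated little together over all kept probes (r of 0.0008 to 0.0555). Whether they shared a culture or batch is not given by the labels, and such an r cannot decide it. Beyond IRS2 in the difference between the lines (-0.48, no longer passing) the replicate block took none of the 8 genes across a threshold. Arrays of 2 a group limit small differences, and dim probes have only bounds.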

Other observations

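At an adjusted p under 0.05 in both lines, 4 genes of the pathway lists differed between the drugs in opposite directions, and they were looked up after their values were seen. They were 4 of 54 listed genes that passed in both lines (7.41%), where 539 of 4445 genes (12.1%) did so among all genes tested. PIK3R1, the main regulatory subunit of PI3K, was higher with simvastatin in OVSAHO (log2 difference 0.47, limma adjusted p = 0.0055) and lower in KURAMOCHI (-0.31, adjusted p = 0.036). ARRDC4, an arrestin-like relative of TXNIP, was lower in OVSAHO (-0.46, adjusted p = 0.0047) and higher in KURAMOCHI (0.51, adjusted p = 0.0059). The inositol phosphatase INPP5E had values of 0.24 and -0.29 (adjusted p = 0.021 and 0.018), and the autophagy protein MAP1LC3B 0.26 and -0.30 (adjusted p = 0.046 and 0.040). The test of the difference between the lines passed for these 4 genes, with adjusted p-values from 0.0034 for ARRDC4 to 0.023 for MAP1LC3B. None of these differences reached 2-fold in a line.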
